A study of Homo sapiens with 4 samples.

Results

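Around the coding starts and ends of the heavy-strand mRNAs of the human mitochondrial genome, 951 of the 16500 positions in each heavy-strand file were examined for their reactivity with dimethyl sulfate (DMS). They are the positions within 25 nt on either side of each start and end of 10 coding stretches, which hold 12 genes, since ATP8 with ATP6 and ND4L with ND4 each form a single stretch. DMS methylates A and C where their pairing face is free, and the reverse transcriptase TGIRT-III then writes a mismatch there. The results therefore rest on 329 A and 255 C positions, which make 584 of the 10265 A and C positions in the file, with A and C kept apart throughout. The members were chosen by position alone and not by their values. The inner side of a boundary is the coding side, the outer side lies beyond it, and bases are counted from 1 at the boundary.

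HEK-293T cells, a line of human embryonic kidney origin, were the source of the mitochondria, which were isolated and treated with 1% DMS for 5 min at 37 °C. Wild-type mitochondria gave 2 libraries and mitochondria of LRPPRC-knockout cells gave 2, labelled as biological replicates. All 4 libraries were treated with DMS. Without an untreated library, mismatches from modified bases or sequence differences are included in every value. How the knockout was made, and from how many clones, is not given in the sources used here, and LRPPRC itself is a nuclear gene outside these files.

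Mitochondrial mRNAs are cut from long transcripts of a whole strand. Most of them are flanked directly by tRNAs, whose ends are cut by RNase P on the 5′ side and by ELAC2 on the 3′ side, so that the first base after a cut is often the first base of the start codon. Several mRNAs end in an incomplete stop codon that the poly(A) tail completes. LRPPRC, a pentatricopeptide repeat protein, binds these mRNAs together with SLIRP and is needed for their stability, polyadenylation and translation.

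The junctions below hold the positions and sides on which the results turn. They are printed 5′ to 3′ as heavy-strand transcripts are read in the files, 25 bases on each side of the boundary, with the start codon or the final codon or its remnant in capitals. All coordinates are in the files' own numbering. The files do not state a genome build.

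COX3 end, chrM:9965-10014, followed by the glycine tRNA: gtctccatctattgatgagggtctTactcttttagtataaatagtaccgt
ND3 start, chrM:10033-10082, preceded by the same tRNA: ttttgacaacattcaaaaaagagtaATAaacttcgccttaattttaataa
CYTB start, chrM:14721-14770: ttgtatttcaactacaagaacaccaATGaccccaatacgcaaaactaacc
COX2 start, chrM:7560-7609, preceded by the aspartate tRNA: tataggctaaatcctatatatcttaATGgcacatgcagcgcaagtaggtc
COX2 end, chrM:8244-8293, followed by a stretch without a gene: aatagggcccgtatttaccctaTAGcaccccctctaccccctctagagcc
COX1 start, chrM:5878-5927: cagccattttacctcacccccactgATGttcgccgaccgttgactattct
ATP6 end, chrM:9182-9231, which runs into COX3: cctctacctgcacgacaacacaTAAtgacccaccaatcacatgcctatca
ND4L start, chrM:10444-10493, preceded by the arginine tRNA: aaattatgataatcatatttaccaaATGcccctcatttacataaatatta
ND4 end, chrM:12112-12161, followed by the histidine tRNA: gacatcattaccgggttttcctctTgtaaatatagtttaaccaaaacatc
ND2 end, chrM:5486-5535, followed by the tryptophan tRNA: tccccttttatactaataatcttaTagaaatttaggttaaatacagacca

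All 10 coding starts begin with A, in 6 ATG, 3 ATA and 1 ATT codon. Of the 10 coding ends, 5 close on a bare T, which are those of ND2, COX3, ND3, ND4 and CYTB. ND1 closes on TA, 2 stretches on TAA, 1 on TAG and 1 on AGA. The last base of ATP6 is also the first base of COX3, so both sides of that boundary are coding and neither was counted as an outer side. Heavy-strand tRNAs lie outside 7 of the other 9 starts and 6 of the other 9 ends.

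Values are mismatch percentages, the share of reads at a base that differ from the reference. They carry no read counts, so the depth behind each one is unknown. Positions were tested where the mean over the 4 libraries lay between 0.002 and 0.3 as a fraction, which kept 322 A and 249 C positions. Below the limit were 7 A and 5 C positions, 9 of them in heavy-strand tRNAs, and none of the 584 was at 0 in any library. Another 12 members were under 0.2% on average in wild type and passed only through the knockout, so they had to lie higher there, and 11 of them were called higher; 3 passed only through wild type. Above the upper limit was C14765, base 20 inside CYTB, with 90.8% and 93.3% in wild type against 88.6% and 89.5% in the knockout. Replicates correlated across the tested positions with r = 0.976 at A and 0.989 at C in wild type and 0.979 and 0.986 without LRPPRC, and libraries of different groups with r between 0.874 and 0.886 at A and 0.795 and 0.806 at C.

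In wild type the coding side reacted more than the outer side at both kinds of boundary, and both sides reacted less than the interior of the coding regions. The median mismatch at A inside the starts was 2.14% and 2.19% in the 2 wild-type libraries, and outside them it was 1.17% and 1.19%. At A inside the ends it was 2.35% in both libraries, and outside them it was 0.777% and 0.969%. Coding A positions over 25 nt from any boundary had 3.03% and 3.02%. The A positions beyond the ends were therefore the least reactive class, and the wild-type libraries differed there, the second lying above the first by a median of 0.27 on the log2 scale.

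At C the same order held in wild type. Inside the starts the median was 3.67% and 3.74%, against 2.27% and 2.46% outside them. Inside the ends it was 3.43% and 3.44%, against 2.42% and 2.30% outside them, while coding C positions farther from a boundary had 4.19% and 4.15%. The wild-type replicates differed by a median of 0.12 on the log2 scale at C outside the starts and by at most 0.03 on the 3 other C sides.

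The knockout libraries were lower over the whole file. The median of the tested positions was lower by 0.50 at A and 0.81 at C on the log2 scale, which is the shift that centring removes, and the median change per position was -0.39 at A and -0.66 at C. The contrast across the boundaries shrank as well in these medians. At A around the starts the mean log2 contrast differed between the groups by 0.06, less than the wild-type SD of 0.10. In the knockout the median A was 1.65% and 1.69% inside the starts and 1.09% and 1.06% outside them. Inside the ends it was 1.78% and 1.74%, and outside them 1.06% and 1.05%, which is above both wild-type values and the only one of the 8 medians that did not fall. At C the knockout medians were 2.10% and 2.12% inside the starts, 1.62% and 1.59% outside them, 1.97% and 2.15% inside the ends and 1.73% and 1.72% outside them. Each of these C medians lay below both wild-type values.

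**Figure D1:**
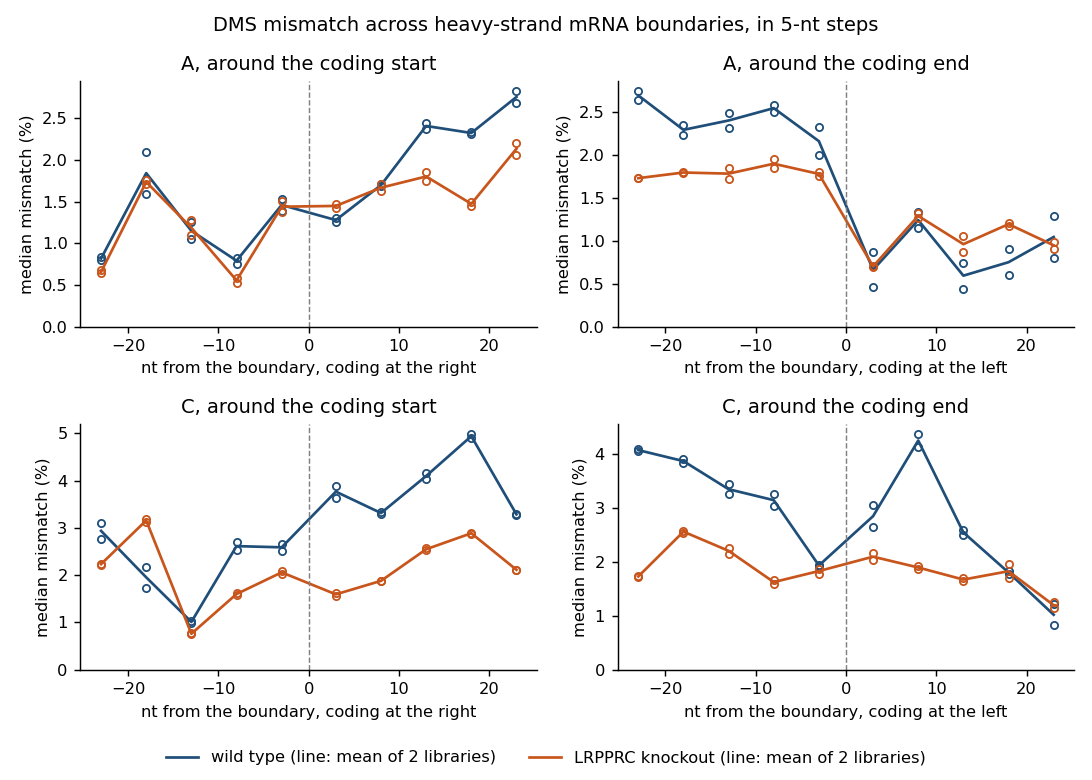
Median mismatch (%) at A (top) and C (bottom) in steps of 5 nt across the coding starts (left) and ends (right), against the distance in nt from the boundary, which the dashed line marks. Circles are single libraries and lines the means of 2 libraries. The wild-type line drops from the coding side to the outer side at A around the ends, and the knockout line is flatter.

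The step across a boundary was measured as the mean log2 value of the outer side minus that of the inner side, with 0.001 added to each fraction. Centring a library on the median of a base leaves this step as it is. At A around the ends it was -1.25 ± 0.16 in wild type (SD, n = 2 libraries, with -1.36 and -1.13) and -0.69 ± 0.03 in the knockout (-0.71 and -0.67), so it was 0.55 shallower. At C around the ends it went from -0.77 ± 0.05 to -0.29 ± 0.01, a difference of 0.48. With a pseudocount of 0.01 the differences around the ends were 0.30 at A and 0.29 at C, and where the mean fraction had to reach 0.01 they were 0.28 at both. At C the difference was 0.16 with sides of 15 nt and 0.93 over tRNA-flanked ends alone. Around the starts the step at C went from -1.07 ± 0.10 to -0.58 ± 0.01, a difference of 0.48. In each of these 3 contrasts the groups did not overlap, with a two-sided exact permutation p of 0.333, the smallest that 2 libraries against 2 allow. At A around the starts the step was -0.65 ± 0.10 in wild type against -0.59 ± 0.01 in the knockout (exact permutation p = 0.667). That difference of 0.06 was smaller than the wild-type SD, and it turned to -0.01 without the first wild-type library and to -0.18 with sides of 15 nt.

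Not every boundary carried the step. In wild type the outer side was lower at 9 of 9 starts at C and at 6 of 9 at A, and at 8 of 9 ends at A and at 6 of 7 at C. The exceptions were the starts of ND1, ND2 and COX2 and the end of COX2 at A, and the end of ND5 at C. The steepest step was at the end of COX3, where the outer minus inner log2 difference at A was -3.32 and -2.98 in wild type and -1.25 and -1.17 without LRPPRC. At the end of ND4 it was -2.34 and -2.24 in wild type against -1.04 and -0.90 in the knockout. At the end of ND5, which runs into the region opposite the light-strand mRNA ND6, it was -0.07 and -0.06 in wild type and 0.08 and 0.05 without LRPPRC. With sides of 15 nt the step at C around the ends was -0.24 in wild type in place of -0.77.

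The first coding base was less reactive in wild type than the rest of the inner side of the starts. Its median mismatch over the 10 starts was 0.606% and 0.497% in wild type against 1.12% and 1.14% in the knockout. In wild type it was lower than the median of the other A positions of its own inner side at 10 of 10 starts. Its mean log2 value minus that of the other 71 inner A positions was -1.72 ± 0.02 in wild type (SD, n = 2) and -0.64 ± 0.01 in the knockout (SD, n = 2), a difference of 1.08. The libraries of the groups did not overlap in this value (exact permutation p = 0.333, the smallest possible). With a pseudocount of 0.01 the difference was 0.59. The comparison of the first base was chosen after seeing the data. The second base of all 10 start codons, a T, had a median of 0.343% and 0.349% in wild type and 0.511% and 0.558% without LRPPRC. Among the 5 bases nearest to the starts on the inner side, the median at T was 0.381% and 0.389% in wild type against 0.563% and 0.634% in the knockout, and at G 0.320% and 0.315% against 0.398% and 0.403%. Over the whole file G was also higher in both knockout libraries, at 0.380% and 0.415% against 0.371% and 0.333%, while T was lower. The part of G and T mismatches in the change of the first base was not tested.

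Change at single positions was fitted with limma on log2 values centred on each library's median for that base. A positive value is thus a rise relative to the general fall, and the uncentred value is given where the direction differs. After centring, 10 of the 10 first coding bases were higher in the knockout at an adjusted p under 0.05, against 39.4% of all A positions of the file called higher. Without centring 6 of the 10 were called higher, against 4.44% of all A positions. Without the first wild-type library 8 of the 10 were called higher, ND1 and ND5 being lost, and without the second 9, ND5 being lost. The first bases of COX2 and ND5 reached the lower limit only through the knockout, so they had to lie higher there. The other 8 were called higher after centring. COX2 is also among the 6 called higher without centring, and ND5 is not.

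The largest rise was at A10058, the first base of ND3, a complex I subunit. Its mismatch was 0.319% and 0.248% in wild type and 3.43% and 3.46% without LRPPRC, so that the base was the lowest of the 10 A positions of that coding side in wild type and the highest of them in the knockout. The centred log2 change was 3.72 (SE 0.12, limma adjusted p = 0.000426). The first base of CYTB, the cytochrome b of complex III, had 0.749% and 0.819% in wild type against 2.39% and 2.54% in the knockout, a centred change of 2.04 (SE 0.08). The first base of COX2, a complex IV subunit, had 0.140% and 0.161% in wild type, the lowest of the 10, and 0.500% and 0.572% in the knockout, a centred change of 1.84 (SE 0.14). The groups did not overlap at any of these 3 bases.

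At the other starts the first base changed by less. ND4L, another complex I subunit, had 0.477% and 0.321% in wild type and 0.714% and 0.575% without LRPPRC, with a centred change of 1.09. ND2 had 0.282% and 0.267% against 0.397% and 0.396%, a centred change of 0.91, and ATP8, a subunit of the ATP synthase, had 0.735% and 0.672% against 0.865% and 0.927%, a centred change of 0.81. All 3 were also called higher without centring. ND5 started at 0.174% and 0.182% in wild type against 0.240% and 0.230% in the knockout, and COX1 at 1.22% and 1.20% against 1.43% and 1.35%. These 2 lay above wild type in both knockout libraries but were not called without centring (limma adjusted p = 0.101 and 0.0617).

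The base shared by ATP6 and COX3 had 1.29% and 1.40% in wild type and 1.37% and 1.40% without LRPPRC, so the groups overlapped before centring. At ND1, the start with the highest wild-type value, the first base had 1.99% and 2.02% in wild type against 1.62% and 1.65% in the knockout. It was called higher after centring, with a change of 0.22, and lower without centring, with a change of -0.28.

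**Figure D2:**
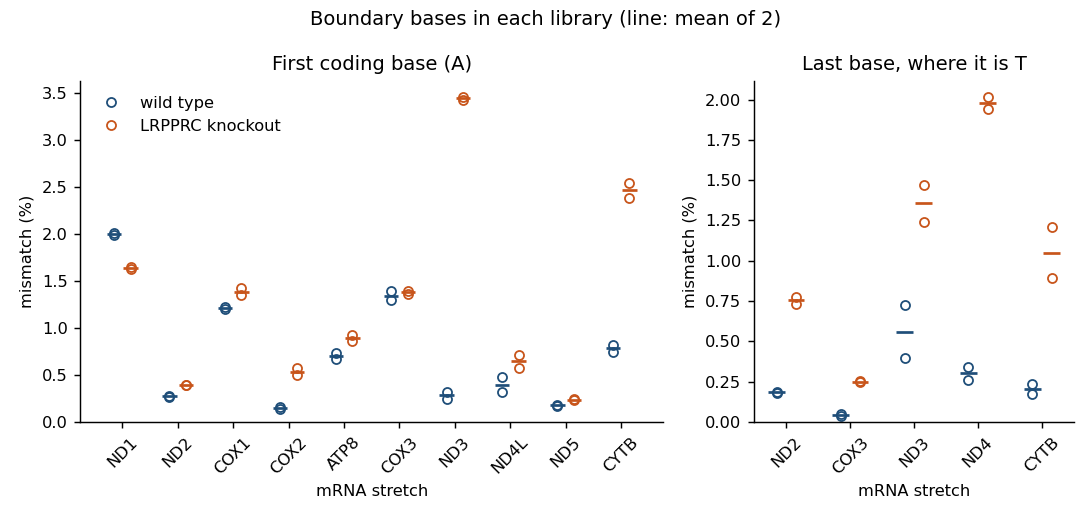
Mismatch (%) at the first coding base of the 10 starts (left) and at the last base of the 5 stretches that end on T (right), by mRNA stretch. Circles are single libraries and short lines the means of 2. The knockout lies above wild type at the starts of ND3, CYTB and COX2 and at all 5 ends, and below it at the start of ND1.

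At the last coding base, 4 of the ends carried an A. That of ND5 had 3.14% and 3.03% in wild type and 1.90% and 1.93% without LRPPRC, a centred change of -0.16 (limma adjusted p = 0.0163), which was not called at -0.03 when A and C were centred together, nor at -0.14 without the first wild-type library. That of ND1 had 1.21% and 1.44% in wild type against 1.59% and 1.61% in the knockout, a centred change of 0.76 and an uncentred one of 0.26 that was not called. That of COX1 had 2.35% and 1.99% against 1.82% and 1.97%, with a centred change of 0.32 and an uncentred one of -0.18. Its centred call was lost with a replicate block (limma adjusted p = 0.0603), without the second wild-type library and without either knockout library. The centred change was 0.20 without the second wild-type library. It was 0.37 and 0.26 without the first and the second knockout library. The last A of ATP6 is the shared base above.

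The 5 ends that close on a bare T were read as a separate matter, since T is not among the bases whose DMS adducts are read here. The last T of ND4 had 0.263% and 0.344% in wild type and 2.02% and 1.94% without LRPPRC. The last T of ND2 had 0.187% and 0.181% against 0.735% and 0.776%, and that of CYTB 0.176% and 0.235% against 0.893% and 1.21%. The last T of COX3 had 0.040% and 0.047% against 0.253% and 0.246%, and that of ND3 0.397% and 0.725% against 1.24% and 1.47%. The knockout libraries lay above both wild-type libraries at all 5 of these ends, against 35.3% of all T positions of the file. The last base of COX2 is a G that had 4.59% and 6.21% in wild type against 4.18% and 4.92% in the knockout, so its groups overlapped.

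Mismatches at G and T, which serve here as a reading beside A and C, were also higher in the knockout on both sides of the ends. Outside the ends the median at T was 0.284% and 0.352% in wild type and 0.559% and 0.610% without LRPPRC, and at G it was 0.362% and 0.398% in wild type against 0.527% and 0.752% in the knockout. Inside the ends T had 0.926% and 0.984% against 1.07% and 1.10%, and G 0.461% and 0.481% against 0.562% and 0.691%. At the 5 bases nearest to the ends on the inner side T had 0.535% and 0.545% against 0.908% and 0.895%. In all these groups of G and T beside the ends both knockout libraries were above both wild-type libraries. Outside the starts the median at T was 0.490% and 0.566% in wild type and 0.523% and 0.538% without LRPPRC, so the groups overlapped. Over the whole file T went from 0.909% and 0.875% to 0.839% and 0.837%. G went from 0.371% and 0.333% to 0.380% and 0.415% there, so a higher G in both knockout libraries is not particular to the junctions. The part of the mismatches at G and T in the change at A and C beside the ends was not tested.

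The 5 bases nearest to the boundary were then set against the other 20 of their side. Inside the starts the mean log2 value of the nearest A positions minus that of the others was -0.93 ± 0.02 in wild type (SD, n = 2) against -0.36 ± 0.02 in the knockout. Of the 20 nearest A positions there, 10 are the first coding bases, whose own comparison was chosen after seeing the data. The nearest A positions without them were not compared. At C inside the starts the near bases differed from the others by -0.12 ± 0.003 in wild type against -0.51 ± 0.002 in the knockout, so that the nearest C positions fell more than the rest there. Inside the ends the nearest C positions stood at -0.84 ± 0.02 in wild type and -0.19 ± 0.03 without LRPPRC, and the nearest A positions at -0.47 ± 0.01 and -0.23 ± 0.01. In each of these 4 comparisons the libraries of the groups did not overlap (exact permutation p = 0.333, the smallest possible). Relative to the rest of their side, the nearest A positions of the starts thus rose and the nearest C positions fell. These are unlike bases, since the start codons hold no C and the first coding bases are all A.

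On the outer sides the end-most bases showed smaller differences between the groups. Outside the ends the nearest C positions stood at -0.13 ± 0.04 in wild type against 0.11 ± 0.004 in the knockout, a difference of 0.24 that became -0.02 with the 3 nearest bases. For A outside the ends and for A and C outside the starts the knockout differed from wild type by 0.01, 0.04 and 0.01. With the 3 nearest bases these differences were 0.07, 0.13 and 0.14. The median of the nearest A positions outside the ends was 0.458% and 0.864% in the 2 wild-type libraries, a gap wider than that between the groups.

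Over all tested members, 190 of 322 A positions (160 higher and 30 lower) and 186 of 249 C positions (124 higher and 62 lower) were called at an adjusted p under 0.05 after centring. The shares, 59.0% at A and 74.7% at C, are near those of all A and C positions of the file, 59.6% and 76.2%, so the count of calls is not a result about the junctions. Called higher were 39.4% of all A and 49.0% of all C positions, and called lower 997 of 4930 A and 1353 of 4980 C positions. The median centred change of the members was 0.28 at A and 0.17 at C, against 0.11 and 0.14 over all tested positions.

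Without centring the direction of most calls turned. Of the A members 195 were called, with 43 higher and 152 lower, and of the C members 215, with 18 higher and 197 lower, where 77.8% of all A positions and 88.0% of all C positions were called. Called higher without centring were 5.00% of all C positions. Centred together, the bases gave 210 higher and 11 lower at A and 88 higher and 89 lower at C, where 70.0% of all A and 73.1% of all C positions were called. Quantile normalization gave 129 higher and 35 lower at A and 101 and 73 at C, where 54.9% and 72.1% of all positions were called.

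The sides were also fitted as windows, as the mean log2 value of a side with at least 3 tested positions. At A 31 of 38 sides were called, 28 higher and 3 lower, against 78.6% of 658 windows along the file, and at C 29 of 36, 21 higher and 8 lower, against 84.0% of 636 windows. All 14 outer sides called at A were higher, of 18 tested, and so were 11 of the 12 called at C, of 16 tested. Of all windows of the file 57.0% at A and 59.3% at C were called higher. Called lower were 142 of the 658 at A and 157 of the 636 at C. The inner sides were more mixed, with 14 higher and 3 lower at A and 10 higher and 7 lower at C. Without centring 6 sides at A were higher and 24 lower, and at C 4 were higher and 29 lower, where 2.89% of all windows at A and 3.77% at C were called higher.

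**Figure D3:**
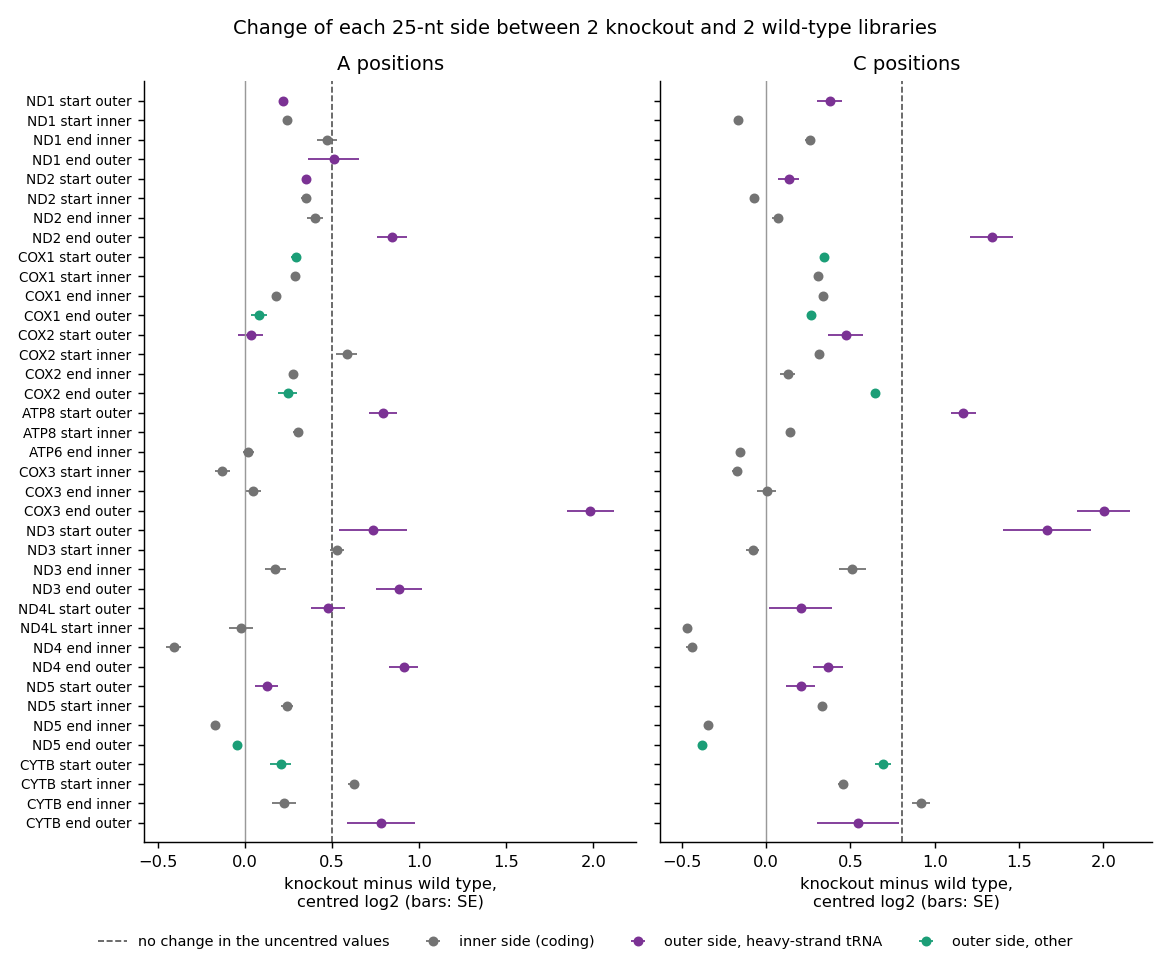
Centred log2 change (knockout minus wild type) of each 25-nt side at A (left) and C (right), with SE bars from limma. The dashed line marks no change in the uncentred values. The 2 sides of the glycine tRNA, at the end of COX3 and the start of ND3, lie farthest to the right at C, and the inner sides of the ND4 end and the ND4L start lie farthest to the left among the coding sides at C.

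The outer sides were then grouped by the annotation beyond the boundary. Outside the ends, in the first bases of 6 heavy-strand tRNAs, 46 of 61 tested A positions and 14 of 17 C positions were called higher after centring and 0 of either were called lower, where 39.4% of all A and 49.0% of all C positions were called higher. Of these, 5 A and 2 C positions reached the lower limit through the knockout alone, and without them 41 of 56 and 12 of 15 were called higher. The median uncentred change of the tested positions was 0.27 at A and 0.32 at C. Outside the starts, in the last bases of 7 tRNAs, 23 of 61 A positions were called higher and 1 lower, and 16 of 32 C positions were called higher and 0 lower, with uncentred medians of -0.24 and -0.45. Beyond the end of ND5, opposite ND6, 0 of 6 A positions were called higher and 1 lower. At C there 0 of 10 positions were called higher and 9 lower. Over the whole file 997 of 4930 A and 1353 of 4980 C positions were called lower. With those under the limit included, the 65 tRNA A positions outside the ends had a median of 0.390% and 0.516% in wild type. In the knockout it was 0.620% and 0.663%. Over all 19 C positions of the same tRNAs it was 0.408% and 0.589% in wild type and 0.678% and 0.622% without LRPPRC. Over the 17 tested ones it was 0.555% and 0.778% against 0.683% and 0.652%, where the groups overlapped. The tested tRNA A positions outside the ends had a median of 0.406% and 0.533% in wild type and 0.651% and 0.686% without LRPPRC, and the gap between the wild-type replicates was about as wide as that from the second of them to the knockout. Mature tRNAs and uncut precursors cannot be told apart in these values.

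The glycine tRNA, which lies between COX3 and ND3, held the side with the largest rise. In its first 25 bases the mean mismatch of the 6 tested A positions was 0.140% and 0.201% in wild type against 0.749% and 0.783% in the knockout, a centred change of 1.98 (SE 0.14). Of these 6, 5 had a wild-type mean under the lower limit of 0.2% and passed only through their knockout values. With all 8 A positions and no lower limit the means were 0.120% and 0.177% in wild type and 0.611% and 0.630% without LRPPRC, a centred change of 1.77 (SE 0.14). The 4 C positions, of which 2 passed only through the knockout and which make up all C positions there, had 0.145% and 0.224% in wild type and 0.530% and 0.594% without LRPPRC, a centred change of 2.00 (SE 0.16). This was the lowest of all sides in wild type for both bases, and the groups did not overlap. The G and T positions of the same 25 bases had medians of 0.045% and 0.091% in wild type against 0.520% and 0.548% in the knockout. In its last 25 bases, outside the start of ND3, the 3 tested C positions had 0.660% and 1.09% in wild type and 1.86% and 1.69% without LRPPRC, a centred change of 1.66 (SE 0.26). The 11 A positions of the same stretch had 0.572% and 0.882% in wild type against 0.790% and 0.776% in the knockout, so there the groups overlapped before centring. The G and T median of that stretch was 0.225% and 0.480% in wild type and 0.883% and 0.812% without LRPPRC, so both knockout libraries were above both wild-type libraries at G and T at either end of this tRNA. The part of G and T mismatches in the change at A and C was not tested.

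Other tRNA sides changed by less, and not all in the plain percentages. The first bases of the tryptophan tRNA, after ND2, had 0.925% and 1.12% at C in wild type against 1.64% and 1.63% in the knockout, a centred change of 1.34. Those of the histidine tRNA, after ND4, had 0.927% and 0.782% at A in wild type and 1.01% and 0.915% without LRPPRC, where the centred change was 0.91 and the groups overlapped before centring. The G and T median of that side was 0.403% and 0.739% in wild type against 1.66% and 1.60% in the knockout. The C positions of the same side had 0.689% and 0.752% in wild type and 0.536% and 0.493% without LRPPRC, higher by 0.37 after centring and changed by -0.44 without it. Those of the threonine tRNA, after CYTB, had 0.881% and 1.43% against 0.871% and 0.840%, and were not called after centring (limma adjusted p = 0.0957). Those of the arginine tRNA, after ND3, had 0.536% and 0.611% at A in wild type and 0.852% and 0.694% without LRPPRC, a centred change of 0.88. The last bases of the lysine tRNA, before ATP8, had 1.74% and 2.12% at C in wild type against 2.75% and 2.61% in the knockout, a centred change of 1.17, and 1.19% and 1.39% at A against 1.73% and 1.64%. The side before ATP8 is named after its values were seen.

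The outer sides with the highest means behaved otherwise. The end of the leucine tRNA before ND1 had the highest mean at A in wild type, 4.57% and 4.20%, and 4.41% and 4.02% in the knockout. The stretch without a gene after COX2 had the next highest mean at A, with 3.47% and 4.03% in wild type and 3.12% and 3.11% without LRPPRC. Beyond the end of ND5 the 10 C positions had 5.26% and 5.20% in wild type, the highest of the C sides, and 2.24% and 2.17% in the knockout, a centred change of -0.38. The inner side of the end of ATP6 had the second highest mean at C, with 5.00% and 5.18% in wild type against 2.38% and 2.33% in the knockout. Its 10 C positions include C9182, which had 13.3% and 14.0% in wild type and 2.16% and 2.29% without LRPPRC. The outer side of the start of ND4L was among the lowest at C, with 0.569% and 0.786% in wild type and 0.465% and 0.361% without LRPPRC, and it was not called after centring (limma adjusted p = 0.348).

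Along the whole file 142 of 658 windows at A and 157 of 636 at C were called lower after centring. Of the 20 coding sides 3 were called lower at A and 7 at C. At C they were the starts of ND1, ND2, COX3 and ND4L and the ends of ATP6, ND4 and ND5, with centred changes from -0.07 at the ND2 start to -0.47 at the ND4L start. Inside the end of ND4 the 4 A positions had 2.79% and 2.82% in wild type against 1.52% and 1.38% in the knockout, a centred change of -0.41, and the 7 C positions had 3.35% and 3.31% against 1.13% and 1.08%, a centred change of -0.44. The G and T positions of that side went the other way, with medians of 0.378% and 0.449% in wild type and 1.48% and 1.66% without LRPPRC. Inside the start of ND4L, the other end of the same stretch, the 6 C positions had 3.27% and 3.30% in wild type against 1.45% and 1.43% in the knockout, a centred change of -0.47. Inside the end of ND5 the 9 A positions had 3.21% and 3.13% against 1.95% and 1.93%, a centred change of -0.17 that was -0.04 and not called when A and C were centred together (limma adjusted p = 0.076). Inside the start of COX3 the 7 A positions had 2.03% and 2.17% against 1.32% and 1.29%, a centred change of -0.13 that was 0.00 to 2 decimals and not called when A and C were centred together. That change was -0.06 with a pseudocount of 0.01 and -0.11 with mismatches and deletions together, and was called in neither. Without the second wild-type library it was -0.08 and not called. The coding side with the largest rise at A was the start of CYTB, with 1.78% and 1.75% in wild type and 1.91% in both knockout libraries. Its 11 A positions include the first coding base, which had 0.749% and 0.819% in wild type against 2.39% and 2.54% in the knockout. The change of this side without that base was not computed. The end of CYTB rose most at C, with 2.30% and 2.39% against 2.50% in both knockout libraries, a centred change of 0.92 and an uncentred one of 0.11 that was not called (limma adjusted p = 0.0712). The G and T medians of these sides were 0.638% and 0.624% in wild type and 1.07% and 1.09% without LRPPRC at the start, and 0.686% and 0.660% against 1.04% and 1.22% at the end. The sides of CYTB are named after their values were seen.

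Away from the boundary bases, the largest rises at single positions were all on outer sides. A9998, the ninth base of the glycine tRNA and base 9 outside COX3, had 0.390% and 0.388% in wild type. In the knockout it had 2.14% and 2.42%, a centred change of 2.78 (SE 0.10). A10004 in the same tRNA passed the lower limit only through the knockout. It had 0.062% and 0.124% in wild type against 0.458% and 0.585% in the knockout, a centred change of 2.20. C10012, also in that tRNA, had 0.178% and 0.325% against 0.769% and 0.924%, a centred change of 2.26. Outside the tRNAs, C8292 lies 24 bases beyond COX2 and had 0.381% and 0.468% in wild type and 2.83% and 2.36% without LRPPRC, a centred change of 3.17 (SE 0.14). C5900, base 3 before the start codon of COX1, had 0.797% and 0.816% in wild type against 2.33% and 2.42% in the knockout, a centred change of 2.25 (SE 0.06). Each of these 5 positions was low in both wild-type libraries and higher in both knockout libraries, as the choice of positions without overlap requires.

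The largest falls were all on coding sides. C9182, base 25 inside the end of ATP6, had 13.3% and 14.0% in wild type and 2.16% and 2.29% without LRPPRC, a centred change of -1.76 (SE 0.05). C12131, base 6 inside the end of ND4, had 5.89% and 6.15% in wild type against 1.25% and 1.10% in the knockout, a centred change of -1.45. C10472, the base after the start codon of ND4L, had 3.77% and 4.29% against 0.997% and 1.00%, a centred change of -1.10. At A the falls were smaller. A12113 inside the end of ND4 had 3.12% and 3.05% in wild type and 1.29% and 1.26% without LRPPRC, and A14127 inside the end of ND5 had 4.16% and 4.08% against 1.73% and 1.72%, both with a centred change of -0.71. A8247 inside the end of COX2 had 4.05% and 4.04% against 1.83% and 1.84%, a centred change of -0.60. Wild-type libraries were above knockout libraries at all 6 of these positions, which the same choice requires.

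**Figure D4:**
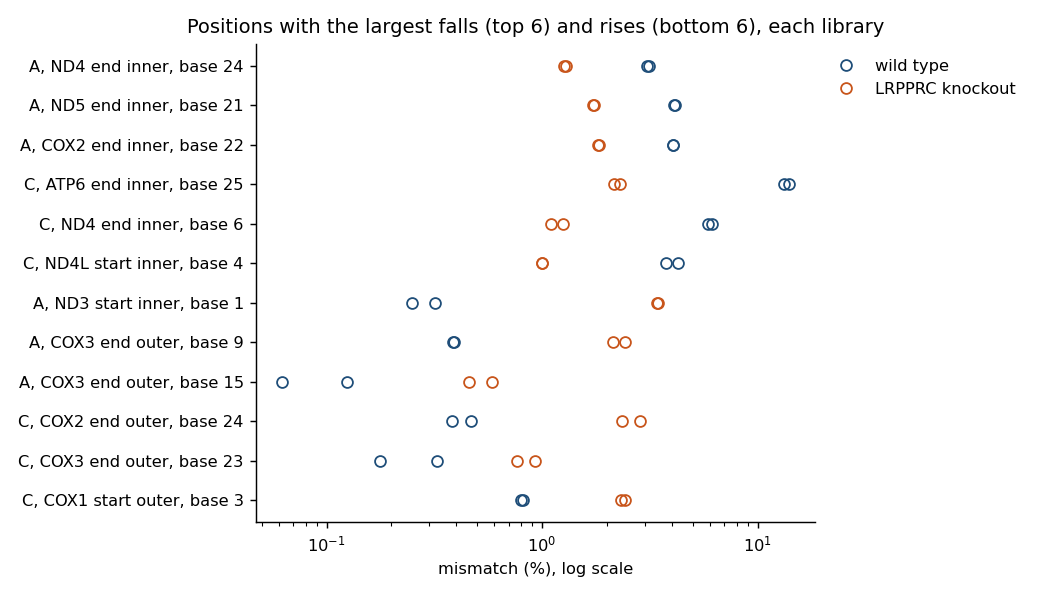
Mismatch (%) on a log scale at the 12 positions with the largest falls and rises, named by base, boundary, side and distance in nt. Circles are single libraries. The 6 falls lie on coding sides with wild type at the right, and 5 of the 6 rises lie on outer sides with the knockout at the right.

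The local sequence was folded in windows to set the side levels beside predicted pairing. The median predicted probability of being unpaired was 0.521 at A outside the starts, 0.752 at A inside them, 0.691 at A outside the ends and 0.831 inside them, against 0.845 over all tested A positions. At C it was 0.820, 0.890, 0.808 and 0.810, against 0.841. The rank correlation of mismatch with this probability across the A positions outside the starts was 0.44 and 0.47 in wild type against 0.57 and 0.58 in the knockout, and across the A positions outside the ends it was 0.04 and 0.01 in wild type and 0.04 and 0.03 without LRPPRC. Across all tested A positions of the file it was 0.22 in both wild-type libraries and 0.21 in both knockout libraries. At C outside the starts it was 0.33 and 0.38 in wild type against 0.50 and 0.47 in the knockout. Inside the starts C had -0.24 in both wild-type libraries against -0.13 and -0.14. Outside the ends C had 0.36 and 0.32 against 0.26 and 0.29, and inside them 0.30 and 0.25 against 0.11 and 0.13. All tested C positions had 0.45 and 0.44 in wild type and 0.36 in both knockout libraries. These are descriptions across positions that share neighbours, and positions are not replicates.

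The choice of 25 nt was not at a break in the values. The A positions 21 to 25 nt from a boundary had medians of 1.86% and 1.97% in wild type, and those 26 to 30 nt away 2.14% and 2.04%. The C positions had 2.91% and 3.06% just inside the limit and 3.09% and 3.14% just outside it.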

How the data were processed

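The authors deposited, per the file headers, one value for each position of each strand: the fraction of mismatches, in a second column the fraction of mismatches with deletions, and the base. Per the submitters' processing notes, cutadapt and Bowtie2 were used, and their versions are not given in the sources used here. Only the 4 heavy-strand files were used. Gene boundaries come from RefSeq's table of GRCh38.p14, with the numbering lowered by 1 along the genes here, which gave a reading frame in the base column for 12 of 12 genes and for 0 of 12 without it. The boundaries, gene lists and tests were chosen with earlier results of these data known.

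Fractions were taken as log2(fraction + 0.001) at positions with a mean between 0.002 and 0.3, which understates the change of low positions, and centred per library and base on the median. All 4930 A and 4980 C positions of the file entered the limma fit (lmFit and trended eBayes, limma 3.58.1, R 4.3.3), two-sided, with Benjamini-Hochberg adjustment over the file and a threshold of 0.05. The 25-nt sides were fitted with windows along the file in the same way. The script was tested on simulated data. Single values were compared by exact permutation, and errors are SD over 2 libraries unless SE is written. Pairing was predicted with RNAplfold 2.7.2 (window 240, span 160). The library depth is unknown, so no interval was computed, and p-values measure only the spread between these libraries. Named were, for each base, the 3 called positions and the 3 called sides with the largest rise and fall whose groups do not overlap for positions, every boundary base, and the 2 highest and 2 lowest sides in wild type. The alternatives tried were other centring, pseudocounts, filters, deletions, shorter sides, other sets of ends, a replicate block and each library left out.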

Additional observations from a re-analysis of the deposited data

How the results depend on the processing

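The counts of called positions and sides stayed within 1.5 times their reported values under every alternative tried, except that sides of 15 nt gave 116 A and 112 C positions called, of 186 and 155 tested. With a library left out, 133 to 163 A positions, 144 to 177 C positions, 28 to 32 A sides and 27 to 31 C sides were called. Wild type and knockout share replicate numbers, but the labels tie no sample to another. Same-numbered libraries correlated by 0.0971 in their deviations over 571 positions. With a replicate block 182 A and 178 C positions and 30 A and 28 C sides were called. Shares of the whole file are not given for shorter sides, a library left out or the replicate block. Their counts are therefore not a result about the junctions.

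The wild-type step at A around the starts was -0.37 with a pseudocount of 0.01, -0.13 where the mean fraction had to reach 0.01, -0.53 for 15-nt sides and -0.54 with the ATP6/COX3 boundary, and -0.72 to -0.58 with a library left out. Its difference between the groups was -0.18 with 15 nt and -0.0070 to 0.13 with a library left out. At C around the starts the wild-type step was -0.69 and -0.46 under the same pseudocount and filter, -0.85 with the ATP6/COX3 boundary and -1.34 with tRNA-flanked boundaries alone. At A around the ends it was -0.67 and -0.29, and -1.41 with tRNA-flanked ends. At C around the ends it was -0.85 with a pseudocount of 0.0001, -0.47 with 0.01, -0.89 without the low filter, -0.30 with the higher one, -0.24 with 15 nt, -0.61 with the ATP6/COX3 boundary and -1.90 with tRNA-flanked ends. The first-base value in wild type was -1.93 and -0.92 with the lower and higher pseudocount, -1.20 with the higher filter and -1.77 with deletions. All these steps kept their sign. A difference between the groups that changed sign was that of the nearest C bases outside the ends, -0.024 with 3 bases. The first 3 bases inside the starts hold no C, so that value was not run. Without centring, A3306 at the ND1 start was -0.28 and A7444 at the COX1 end -0.18, both reversed. The cause was not tested. Leaving out members that reached the lower limit through the knockout alone, and fitting the named positions, boundary bases and sides without that limit, were chosen after seeing the data, and in the latter fit all of them kept their direction and their side of the threshold.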
